A study of Mus musculus with 12 samples.

Results

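The genes described here act in homologous recombination and in the Fanconi anaemia pathway, with the checkpoint kinases that signal to both. The list held 38 mouse genes, and a gene was measured where a probe set carried exactly that 1 symbol in the array annotation; of several such probe sets the one with the highest mean over the 12 arrays was taken. This gave 34 members among 22180 genes measured. Rad54b and Fanca had only probe sets that carry several symbols, and Rbbp8 and Xrcc2 had no probe set with their symbol alone, so these 4 were not analysed here. The values come from GL261 tumours, a mouse glioma line grown in the brains of immunocompetent C57BL/6 males aged 8 weeks, with the tumour mass taken on day 16. Each of 4 groups held 3 arrays. The Combination group received temozolomide (TMZ), a DNA-methylating drug given into the peritoneum at 30 mg/kg, and an antibody against PD-1, the inhibitory receptor of T cells, given into a vein at 10 mg/kg. The TMZ group received the drug alone and the Anti-PD-1 group the antibody alone at those doses. The Control group carried the same tumour, and the labels do not say what these mice were given, on which days the agents were dosed, or whether the arrays stand for different animals. The p values therefore measure the spread between arrays, which may be technical.

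Homologous recombination copies the intact sister chromatid to mend a double-strand break. The ends are first trimmed to single strands, the BRCA proteins then prepare them for strand invasion, helicases steer that step, and nucleases cut the joint molecules apart. The Fanconi proteins unhook crosslinks between the strands and hand the resulting break to recombination, and the kinases ATM and ATR slow the cell cycle while this goes on. Many of these genes are transcribed mainly in S and G2 phase, when a sister chromatid is present, under E2F factors. TMZ methylates guanine, and a cell with active mismatch repair turns that lesion into breaks as it replicates, which is why these genes are of interest after the drug.

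Sequences of the E2F type are shown because E2F factors are known to drive many genes of S phase. Of the 38 genes 31 had an entry among the RefSeq promoters (build GRCm38.p6), 30 of them measured. The 250 bases before each annotated start were searched on both strands for TTTGGCGC, TTTCGCGC, TTTCCCGC and TTTGCCGC, and 5 of the 30 measured members (16.7%) held one of them, against 583 of 27025 genes (2.16%). They were 3 of 14 members of the S and G2 list described with the results (21.4%) and 2 of the 16 others (12.5%). The share over all genes was taken from every gene with an entry, measured or not, and was not matched for G and C content. No member held more than 1 match, so none overlapped. The 28 bases around each match are given 5′ to 3′ on the gene's strand, with the 8 matching bases in capitals.
Bard1: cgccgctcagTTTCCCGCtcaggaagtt
Fancg: ttcttttcagTTTCCCGCggaaccgtct
Chek2: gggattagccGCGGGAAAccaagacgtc
Brca2: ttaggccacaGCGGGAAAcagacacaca
Topbp1: cgctcggttgGCGCGAAAgtcggttccc

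In the order given, these stretches lie at chr1:71103164-71103191 (minus strand), chr4:43010336-43010363 (minus), chr5:110839821-110839848 (plus), chr5:150522443-150522470 (plus) and chr9:103305188-103305215 (plus). The match begins 209 bases before the start in Bard1, 52 in Fancg, 152 in Chek2, 168 in Brca2 and 129 in Topbp1. In Chek2, Brca2 and Topbp1 it reads on the opposite strand. The start meant here is that of the promoter entry, which can lie inside the annotated gene. By the annotated gene bounds 4 of the 5 matches, all but that of Bard1, lie inside the gene. The matches are descriptions of letters and not shown to be bound sites. The upstream stretches of Dna2 and Rad51ap1 are given for contrast, because both genes had an unadjusted p under 0.05 against Control in 2 or more treatments and neither window held a match.
Dna2: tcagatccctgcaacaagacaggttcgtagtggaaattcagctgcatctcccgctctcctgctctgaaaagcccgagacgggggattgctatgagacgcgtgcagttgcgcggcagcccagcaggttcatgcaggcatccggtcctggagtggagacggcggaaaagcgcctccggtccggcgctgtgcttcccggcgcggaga
Rad51ap1: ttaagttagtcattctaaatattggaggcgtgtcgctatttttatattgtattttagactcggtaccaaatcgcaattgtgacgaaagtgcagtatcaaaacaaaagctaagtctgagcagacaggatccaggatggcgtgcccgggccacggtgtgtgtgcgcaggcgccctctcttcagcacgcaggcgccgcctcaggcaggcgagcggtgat

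The Dna2 stretch is 204 bases at chr10:62946779-62946982 (plus strand, 62.3% G and C) and the Rad51ap1 stretch 216 bases at chr6:126939622-126939837 (minus strand, 50.9% G and C), both with the bases inside the annotated gene left off. That no match was found says only that these strings do not occur in the windows searched.

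All values are log2 RMA signals, an Affymetrix intensity after background correction and quantile normalisation, so a difference of 1 is a doubling. Array medians over all probe sets lay between 5.06 and 5.12. On the first principal component of the genes, Control replicates 1 and 2 lay at -20.1 and -26.4, while Control replicate 3, at -1.28, lay among the treated arrays (-4.10 to 13.9). Arrays have no read depth, and 3 arrays a group limit the precision: the 95% interval of a member's difference from Control reached a median of 0.232 to either side, from 0.116 to 0.448.

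The comparisons with Control asked whether either agent, or both, altered expression of the repair genes in the tumours. No member passed the threshold (limma, Benjamini-Hochberg adjusted p under 0.05 over all 22180 genes) after any treatment. The members with an unadjusted p under 0.05 in at least 1 of these comparisons were Fancd2, Exo1, Dna2, Bard1, Rad51ap1 and Topbp1. In Combination against Control limma called 0 of 34 members, beside 0% of all genes, in TMZ 0 beside 0.0992% and in Anti-PD-1 0 beside 0.293%. At an unadjusted p under 0.05, 6 members were found in Combination (17.6%, against 11.6% of all genes), 4 in TMZ (11.8%, against 11.3%) and 4 in Anti-PD-1 (11.8%, against 13.5%), and each of them lay below Control. Of all genes 6.18%, 5.78% and 6.79% lay below Control at that level and 5.43%, 5.47% and 6.7% above it. The median member difference was -0.047 in Combination, -0.044 in TMZ and -0.047 in Anti-PD-1, beside medians over all genes of 0.000478, 0.00609 and 0.00782. The 3 comparisons share the Control arrays. Differences of single members ran from -0.43 to 0.14 in Combination, from -0.43 to 0.20 in TMZ and from -0.40 to 0.13 in Anti-PD-1, and 29 of the 34 stayed within 0.3 of Control after each treatment.

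**Figure D1:**
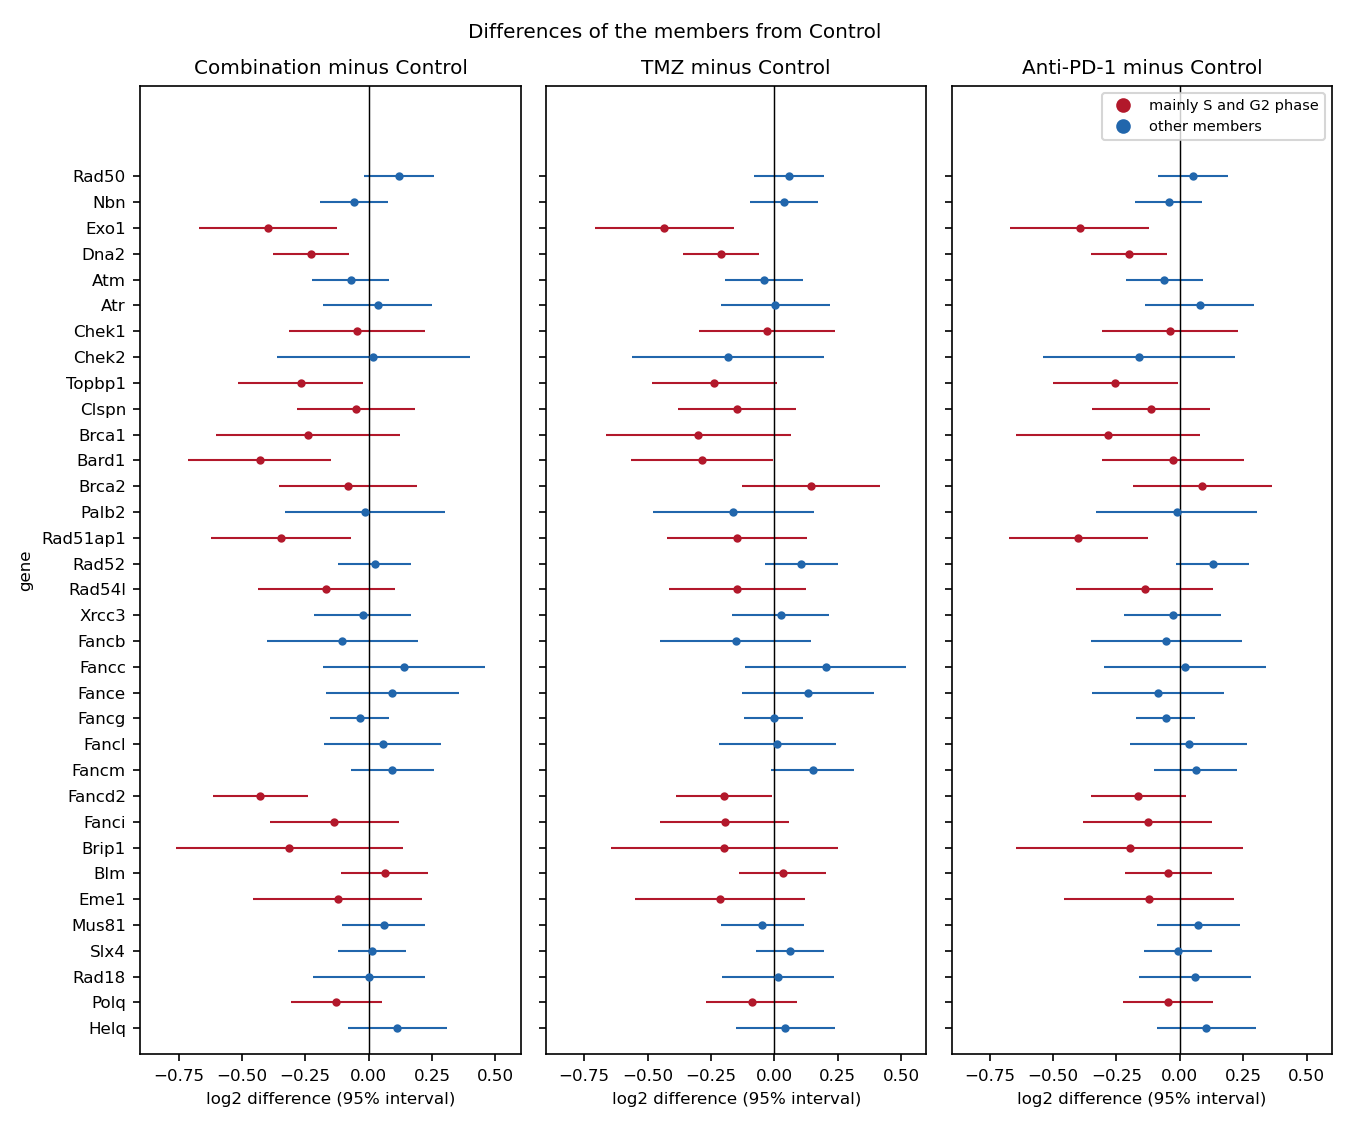
Log2 difference of each of the 34 members from Control (x axis, point with its 95% interval from limma) after Combination, TMZ and Anti-PD-1. Red marks the 16 members listed as expressed mainly in S and G2 phase and blue the other 18; the lowest points, between -0.40 and -0.43, are Exo1, Bard1, Fancd2 and Rad51ap1, all red.

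Break ends are tied and trimmed by 4 measured members. Exo1, the exonuclease that lengthens the single-stranded tail (probe set 17219848), measured 5.12, 5.23 and 5.10 in Combination, 5.14, 5.04 and 5.17 in TMZ, 5.26, 5.08 and 5.13 in Anti-PD-1, and 5.58, 5.85 and 5.22 in Control. Control replicates 1 and 2 lay above every treated array, while Control replicate 3 lay inside the range of the Combination and Anti-PD-1 arrays and just above the TMZ arrays. The difference from Control was -0.40 ± 0.13 (SE) in Combination, -0.43 ± 0.13 in TMZ and -0.40 ± 0.13 in Anti-PD-1, the TMZ one being a 1.35-fold lower signal (adjusted p = 0.265, 0.236 and 0.196 in limma). Without Control replicate 3 these values were -0.56, -0.60 and -0.56, with adjusted p = 0.0204, 0.0129 and 0.0112, so the call of Exo1 turned on that 1 array.

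Dna2, the nuclease and helicase of the other long-range trimming route (probe set 17233811), measured 4.54, 4.73 and 4.49 in Combination, 4.59, 4.57 and 4.65 in TMZ, 4.66, 4.60 and 4.59 in Anti-PD-1, and 4.84, 4.82 and 4.78 in Control. All 9 treated arrays lay below all 3 Control arrays, which held for 2 of the 34 members (5.88%), Dna2 and Fancd2, and for 1.87% of all genes. The differences were -0.23, -0.20 and -0.21 for Combination, Anti-PD-1 and TMZ, each ± 0.069 SE (adjusted p = 0.247, 0.228 and 0.288). Rad50 and Nbn, which with MRE11 hold the break ends, differed from Control by no more than 0.12 in size after any treatment. Rad50 averaged 6.35 ± 0.08 in Combination and 6.23 ± 0.04 in Control (SD, n = 3), and the groups did not overlap.

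Checkpoint signalling had 6 members, and 5 of them gave small or scattered differences. Atm, the kinase activated by double-strand breaks (probe set 17527054), measured 6.39, 6.61 and 6.59 in Combination, 6.56, 6.48 and 6.64 in TMZ, 6.54, 6.58 and 6.50 in Anti-PD-1, and 6.57, 6.64 and 6.60 in Control. Atr, the kinase that answers exposed single strands (probe set 17520439), measured 5.89, 5.83 and 6.09 in Combination, 5.79, 5.87 and 6.06 in TMZ, 5.87, 6.09 and 5.98 in Anti-PD-1, and 5.93, 5.77 and 6.00 in Control. Both sets of values overlapped between the groups, with intervals of the difference of -0.22 to 0.08 for Atm and -0.18 to 0.25 for Atr in Combination, and -0.19 to 0.11 and -0.21 to 0.22 in TMZ. A second probe set of Atr differed in sign from the first in Combination (-0.04) and TMZ (-0.07).

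Chek1, the kinase downstream of ATR (probe set 17525503), measured 4.87, 4.47 and 4.53 in Combination, 4.64, 4.79 and 4.49 in TMZ, 4.71, 4.41 and 4.76 in Anti-PD-1, and 4.67, 4.75 and 4.58 in Control. The treated arrays spanned the Control arrays on both sides, and the intervals, -0.31 to 0.22 in Combination and -0.30 to 0.24 in TMZ, included 0. Topbp1, the activator of ATR (probe set 17520932), measured 6.35, 6.63 and 6.67 in Combination, 6.60, 6.47 and 6.68 in TMZ, 6.40, 6.61 and 6.69 in Anti-PD-1, and 6.86, 6.96 and 6.64 in Control. Control replicates 1 and 2 were again the 2 highest arrays, and the differences were -0.27 ± 0.11, -0.24 ± 0.11 and -0.26 ± 0.11 for Combination, TMZ and Anti-PD-1 (adjusted p = 0.396, 0.464 and 0.355).

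Chek2, the kinase downstream of ATM (probe set 17440575), is described after its values were seen because its Control arrays disagreed. It measured 4.51, 4.42 and 4.55 in Combination, 4.47, 4.24 and 4.17 in TMZ, 4.29, 4.35 and 4.31 in Anti-PD-1, and 4.77, 4.72 and 3.95 in Control. Control thus held both the 2 highest values and the lowest of all 12. Without Control replicate 3 the difference was -0.45 ± 0.088 in TMZ (adjusted p = 0.0348) and -0.43 ± 0.088 in Anti-PD-1 (adjusted p = 0.0286), against -0.18 ± 0.17 and -0.16 ± 0.17 with all arrays. Clspn, the adaptor through which ATR reaches CHK1, was at -0.05, -0.15 and -0.11 in Combination, TMZ and Anti-PD-1.

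**Figure D2:**
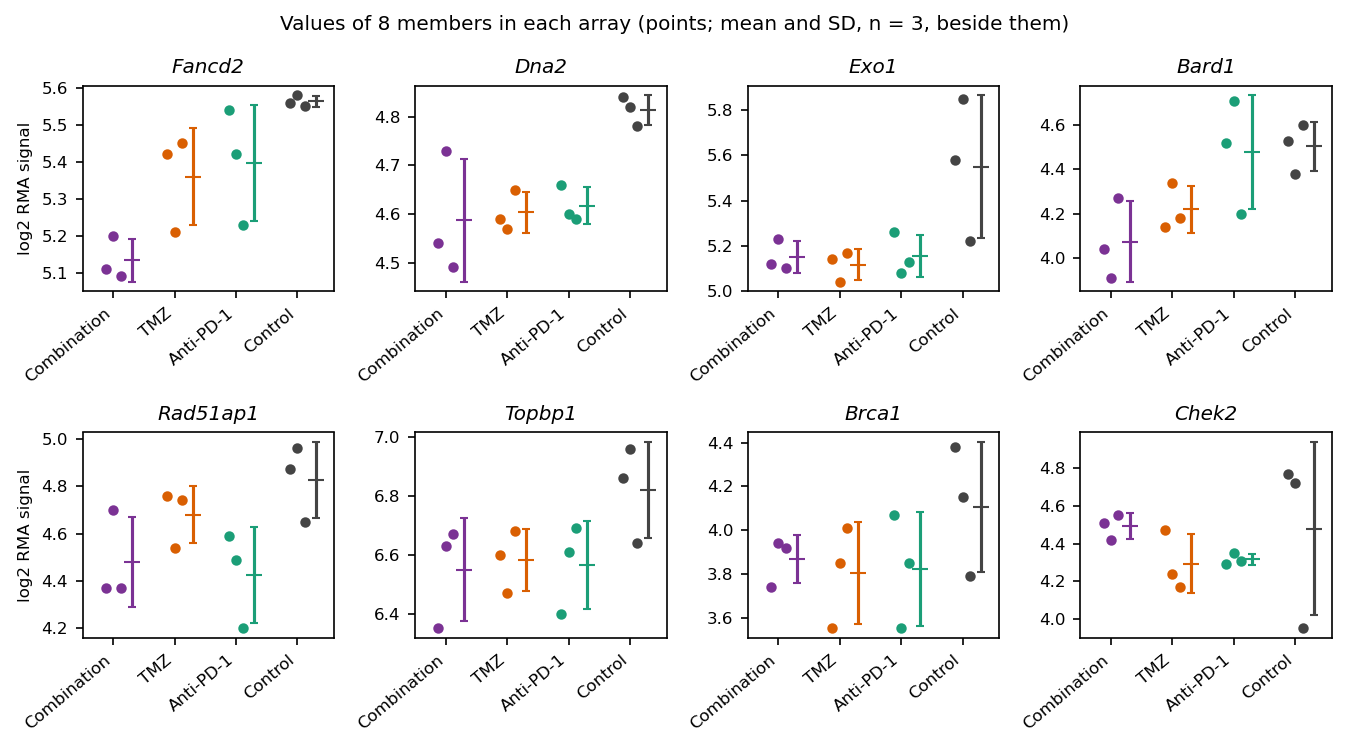
Log2 RMA signal of 8 members in each array (points) by group, with the group mean and SD (n = 3) beside them; each panel has its own y axis, which does not start at 0. The Control points of Fancd2 and Dna2 lie above all treated points, while in Exo1, Topbp1, Brca1 and Chek2 Control replicate 3, the right-hand Control point, lies 0.22 or more below the other Control points.

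The BRCA complexes and the mediators of strand invasion had 8 measured members, of which 7 lay below Control in Combination, 5 in TMZ and 6 in Anti-PD-1. Brca1, the ubiquitin ligase that starts recombination at resected ends (probe set 17269921), measured 3.74, 3.94 and 3.92 in Combination, 3.55, 3.85 and 4.01 in TMZ, 4.07, 3.55 and 3.85 in Anti-PD-1, and 4.38, 4.15 and 3.79 in Control. Bard1, the obligate partner of BRCA1 (probe set 17223999), measured 4.04, 3.91 and 4.27 in Combination, 4.14, 4.34 and 4.18 in TMZ, 4.52, 4.71 and 4.20 in Anti-PD-1, and 4.53, 4.38 and 4.60 in Control. The partners had different patterns: Brca1 overlapped with Control in every treatment, whereas Bard1 lay below Control in both groups that received TMZ and overlapped with it in Anti-PD-1. Bard1 was at -0.43 ± 0.13 in Combination, a 1.35-fold lower signal (adjusted p = 0.238), at -0.28 ± 0.13 in TMZ (adjusted p = 0.439) and at -0.03 ± 0.13 in Anti-PD-1 (adjusted p = 0.951). Brca1 was at -0.24 ± 0.17, -0.30 ± 0.17 and -0.28 ± 0.17 in Combination, TMZ and Anti-PD-1, with adjusted p from 0.488 to 0.618. They moved with single Control arrays: without Control replicate 3 they were -0.39, -0.46 and -0.44, and without Control replicate 1 they were -0.10, -0.16 and -0.15.

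Brca2, a mediator of strand invasion (probe set 17445162), measured 5.02, 5.41 and 5.33 in Combination, 5.41, 5.62 and 5.41 in TMZ, 5.35, 5.28 and 5.65 in Anti-PD-1, and 5.18, 5.45 and 5.38 in Control. The groups overlapped, and the interval of the difference was -0.35 to 0.19 in Combination and -0.13 to 0.42 in TMZ. Rad51ap1, which stimulates strand invasion (probe set 17471201), measured 4.37, 4.70 and 4.37 in Combination, 4.76, 4.54 and 4.74 in TMZ, 4.59, 4.49 and 4.20 in Anti-PD-1, and 4.87, 4.96 and 4.65 in Control. The Anti-PD-1 arrays lay below Control, and 1 Combination array and 2 TMZ arrays lay inside the Control range. The difference was -0.40 ± 0.13 in Anti-PD-1 (adjusted p = 0.195), -0.35 ± 0.13 in Combination (adjusted p = 0.338) and -0.15 ± 0.13 in TMZ (adjusted p = 0.707).

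Rad52, a strand-annealing protein (probe set 17462291), measured 6.79, 6.60 and 6.60 in Combination, 6.76, 6.74 and 6.73 in TMZ, 6.71, 6.83 and 6.76 in Anti-PD-1, and 6.64, 6.67 and 6.61 in Control. Both single-agent groups lay above Control and the Combination group overlapped with it, at differences of 0.11 ± 0.066, 0.13 ± 0.066 and 0.02 ± 0.066 for TMZ, Anti-PD-1 and Combination (adjusted p = 0.586, 0.414 and 0.92). Palb2, which bridges BRCA1 and BRCA2, was at -0.02, -0.16 and -0.01 in Combination, TMZ and Anti-PD-1. Rad54l, a motor protein of strand invasion, was at -0.17, -0.15 and -0.14. Xrcc3, a factor of the later steps of recombination, stayed within 0.03 of Control in all 3.

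The Fanconi core complex, which acts as the ubiquitin ligase of the pathway and holds FANCL as its catalytic subunit, had 6 measured members. Their median difference was 0.07 in Combination, 0.07 in TMZ and -0.02 in Anti-PD-1, and 4, 4 and 3 of the 6 lay above Control. Fancm, the motor protein that anchors the complex on DNA (probe set 17275832), measured 6.59, 6.48 and 6.42 in Combination, 6.48, 6.54 and 6.64 in TMZ, 6.51, 6.36 and 6.52 in Anti-PD-1, and 6.50, 6.36 and 6.34 in Control. These values overlapped between the groups, and the largest difference, in TMZ, was 0.15 ± 0.075 (adjusted p = 0.477). Fancc and Fance were at 0.20 and 0.13 in TMZ, and both groups lay above Control there. Fancg was the steadiest member, with a range over all 12 arrays of 0.11. Fancl stayed within 0.06 of Control, and Fancb was at -0.10, -0.15 and -0.05 in Combination, TMZ and Anti-PD-1.

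Fancd2 and Fanci form the clamp that the core complex ubiquitinates, the central step of the pathway. Fancd2 (probe set 17461739) measured 5.11, 5.20 and 5.09 in Combination, 5.42, 5.21 and 5.45 in TMZ, 5.54, 5.42 and 5.23 in Anti-PD-1, and 5.56, 5.58 and 5.55 in Control. For Fancd2 the Combination arrays lay below those of the other groups, at the closest 5.20 against 5.21 in TMZ. The Control arrays lay above them all, at the closest 5.55 against 5.54 in Anti-PD-1, with both single agents in between. Its difference from Control was -0.43 ± 0.086 in Combination, a 1.34-fold lower signal and the smallest adjusted p of any member in a comparison with Control (adjusted p = 0.14 in limma), against -0.20 ± 0.086 in TMZ (adjusted p = 0.422) and -0.16 ± 0.086 in Anti-PD-1 (adjusted p = 0.437). Without 1 array the value ran from -0.46 to -0.40 in Combination. It ran from -0.24 to -0.12 in TMZ, where -0.12 is without TMZ replicate 2, and from -0.23 to -0.081 in Anti-PD-1, where -0.081 is without Anti-PD-1 replicate 3, and Fancd2 passed the threshold in 0 of 12 such fits of each comparison.

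Fanci (probe set 17479371) measured 3.89, 3.99 and 3.75 in Combination, 3.82, 3.86 and 3.78 in TMZ, 3.91, 3.96 and 3.79 in Anti-PD-1, and 4.21, 4.14 and 3.70 in Control. Here, as in Exo1, Control replicates 1 and 2 were the highest arrays, but Control replicate 3 was the lowest of all, and the differences were -0.14, -0.20 and -0.13 in Combination, TMZ and Anti-PD-1. Brip1, the helicase that binds BRCA1, had the widest range of any member, 0.89 over the 12 arrays, and its interval in Combination ran from -0.76 to 0.13.

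Joint molecules are dissolved or cut by Blm, Mus81 with Eme1, and the scaffold Slx4. Of these 4 members 3 were above Control in Combination, 2 in TMZ and 1 in Anti-PD-1. The helicase gene Blm, the nuclease gene Mus81 and Slx4 stayed within 0.08 of Control in each treatment, with SE from 0.061 to 0.078. Eme1, the regulatory subunit of the MUS81 nuclease, was at -0.12, -0.21 and -0.12, each ± 0.15. Among the members of other routes, Polq, the polymerase of microhomology-mediated end joining (probe set 17325454), measured 4.71, 4.39 and 4.70 in Combination, 4.61, 4.60 and 4.70 in TMZ, 4.71, 4.69 and 4.64 in Anti-PD-1, and 4.70, 4.74 and 4.75 in Control. All but 1 of these arrays lay between 4.60 and 4.75, and Combination replicate 2 stood below them. Rad18, the ubiquitin ligase of damage tolerance, and the helicase gene Helq were at 0.00 and 0.11 in Combination, 0.02 and 0.04 in TMZ, and 0.06 and 0.11 in Anti-PD-1.

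**Figure D3:**
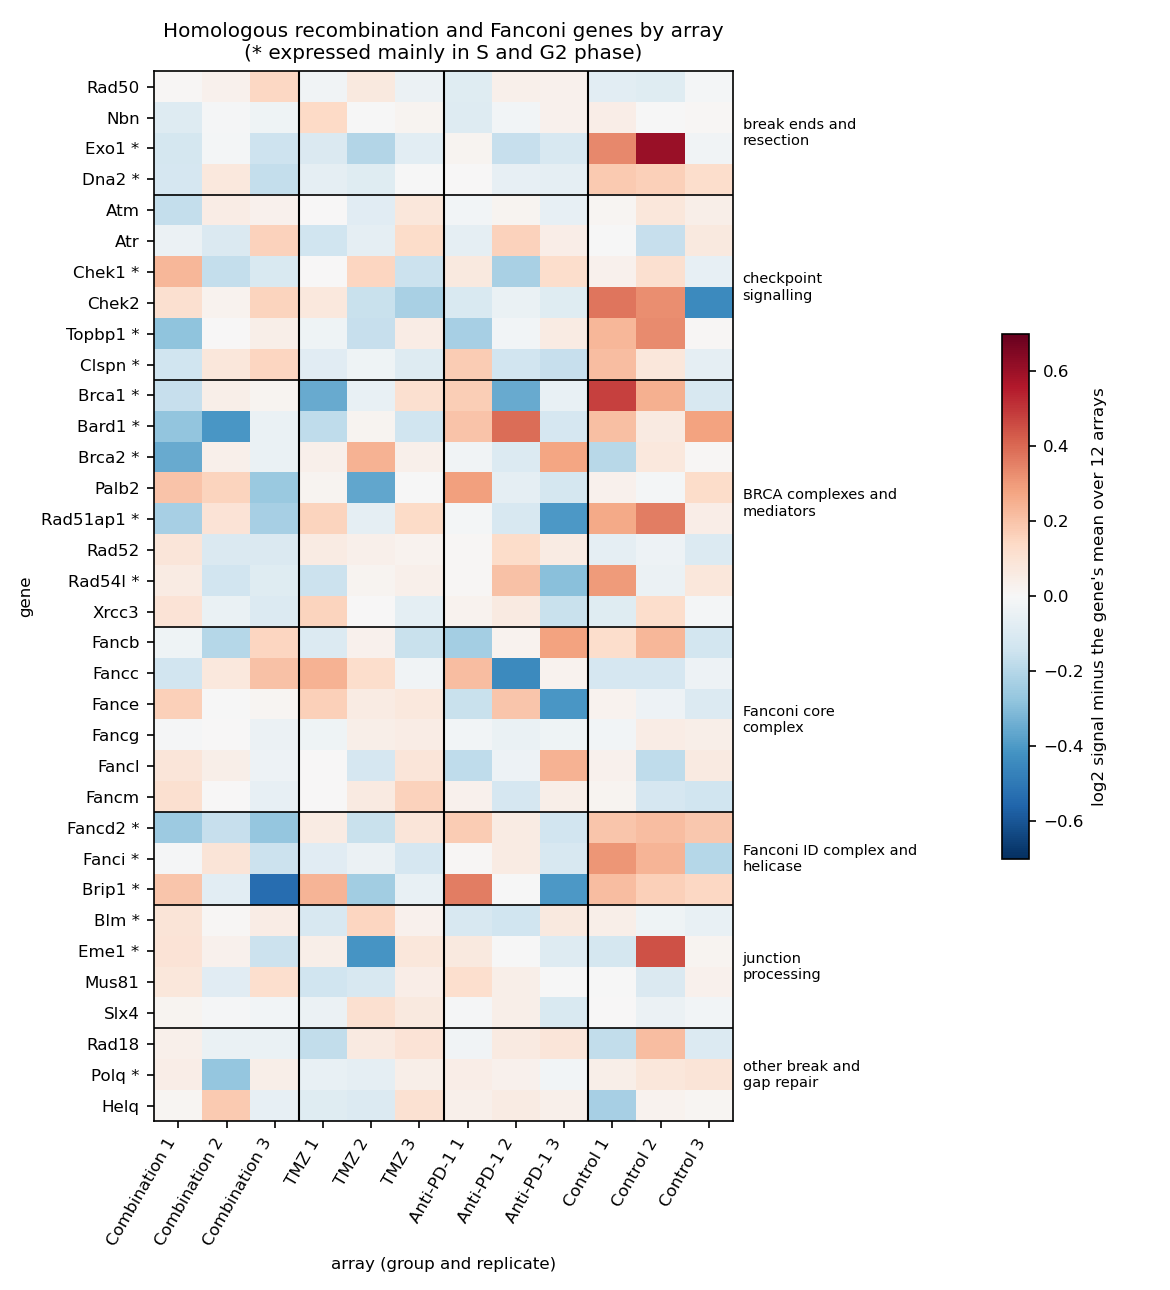
Log2 signal of each of the 34 members (rows, grouped by role) in each array (columns, by group and replicate), as the deviation from the gene's own mean over the 12 arrays; red is higher and blue lower. Control replicates 1 and 2 hold the darkest red cells, in Exo1, Brca1 and Eme1, all marked as S and G2 genes, while Control replicate 3 is blue in Chek2.

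Members known to be expressed mainly in S and G2 phase were read apart from the others, as a list of 16 measured members that was written with earlier results of these arrays known. Of these 16, 15 lay below Control in Combination, 14 in TMZ and 15 in Anti-PD-1, with median differences of -0.20, -0.20 and -0.13. All members at an unadjusted p under 0.05 against Control came from this list, 6, 4 and 4 (37.5%, 25% and 25% of the 16, against 11.6%, 11.3% and 13.5% of all genes). The other 18 members had medians of 0.02, 0.02 and 0.01, with 6, 6 and 9 below Control, and 0 of them at an unadjusted p under 0.05. Among all genes 49.8%, 47.9% and 47.6% lay below Control. In both lists limma called 0 members, and no test was made of the difference between the lists. The lists also differed in brightness. A mean under that of the median gene (5.72) was found in 15 of the 16 S and G2 members and in 5 of the other 18. The part of signal level in the difference between the lists was not tested.

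Per array, the S and G2 members had a median deviation from their own means of -0.119, 0.004 and -0.097 in Combination, -0.057, -0.053 and 0.028 in TMZ, 0.032, -0.036 and -0.100 in Anti-PD-1, and 0.216, 0.169 and 0.013 in Control. Control replicates 1 and 2 were thus the highest arrays, and Control replicate 3 lay below 1 TMZ and 1 Anti-PD-1 array. Of these 16 genes 14 were above their own mean in Control replicate 1 and 14 in Control replicate 2, against 10 in Control replicate 3 and 4 to 12 in the treated arrays. The other 18 members ranged only from -0.025 to 0.050 over all arrays.

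Proliferation markers also lay lower in the treated groups than in Control. All 13 measured markers, among them Mki67, Top2a and Ccna2, lay below Control in each treatment, with median differences of -0.79 in Combination, -0.75 in TMZ and -0.72 in Anti-PD-1, and 0, 1 and 3 of them passed the threshold in limma: Ccna2 in TMZ, and Ccna2, Mki67 and Top2a in Anti-PD-1. Their mean level ranged from 5.20 to 5.26 in Combination, 5.06 to 5.34 in TMZ, 5.10 to 5.21 in Anti-PD-1 and 5.57 to 6.19 in Control, where replicate 3 was the lowest. Control replicates 1 and 2 were the highest arrays for the proliferation markers, as they were for the S and G2 members. Among the treated arrays, where the S and G2 medians ran only from -0.119 to 0.032, the order differed between the lists. Anti-PD-1 replicate 1 and TMZ replicate 3 were the highest treated arrays for those members, at median deviations of 0.032 and 0.028. For the proliferation markers these 2 arrays were at -0.282 and -0.268, where treated arrays ran from -0.282 to -0.07. The part of the proliferation markers in the values of the S and G2 members was not tested. The mean level of monocyte and macrophage markers ranged from 5.17 to 5.42 in Combination, 5.05 to 5.44 in TMZ and 4.90 to 5.16 in Anti-PD-1, against 5.21 to 5.71 in Control, and the glioma and neural progenitor markers from 6.93 to 7.02, 6.89 to 7.11 and 6.81 to 7.0, against 7.04 to 7.39. Of the 7 glioma and neural progenitor markers 5 lay below Control in each treatment, and Prom1 and Egfr lay above it in each. Vim was the furthest below, at -0.85 in Combination, -1.01 in TMZ and -1.16 in Anti-PD-1. Of the 7 monocyte and macrophage markers 4, 6 and 7 lay below Control in Combination, TMZ and Anti-PD-1. Only Plac8 passed the threshold, in Anti-PD-1, at -0.69 (adjusted p = 0.0326 in limma). Neuron markers lay between 10.05 and 10.15 on every array, oligodendrocyte markers between 8.98 and 9.26, astrocyte markers between 8.93 and 9.19 and T cell markers between 4.46 and 4.87. In Combination, TMZ and Anti-PD-1, 3, 2 and 1 of 9 neuron and 7, 6 and 4 of 7 oligodendrocyte markers lay below Control. So did 4 of 7 astrocyte markers in each, and 5, 5 and 4 of 6 T cell markers. Gfap lay below Control without overlap in each treatment, and Slc1a2 and Slc1a3 above it. Endothelial markers ranged from 6.99 to 7.04 in Combination, 6.88 to 7.37 in TMZ and 6.94 to 7.04 in Anti-PD-1, against 6.76 to 6.88 in Control, with 7, 7 and 6 of 7 above Control. Microglia markers ranged from 7.17 to 7.26, 6.94 to 7.21 and 7.07 to 7.21, against 7.19 to 7.34, with 4, 7 and 7 of 7 below Control. The part of these markers was not tested either. In whole tumour masses, fewer cells of a type and less RNA per cell cannot be told apart.

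**Figure D4:**
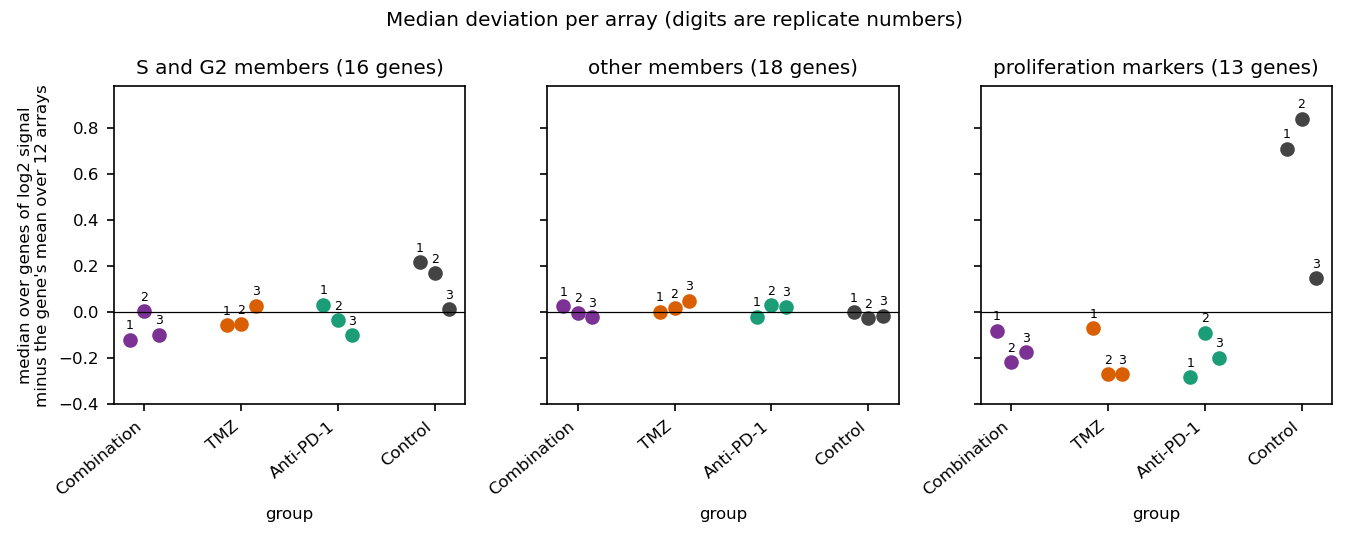
Median over genes of the log2 signal minus the gene's mean over the 12 arrays, for the 16 S and G2 members, the other 18 members and 13 proliferation markers (panels), with 1 point per array and the replicate number above it. Control replicates 1 and 2 stand highest in the first panel (0.216 and 0.169) and the third (0.709 and 0.838), and the second panel is flat.

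Combination was set against each single agent to see what the second agent added. Against TMZ limma called 0 of 34 members (beside 0% of all genes), and 1 member had an unadjusted p under 0.05 (2.94%, against 4.19% of all genes). That member was Fancd2, at -0.23 ± 0.086 (adjusted p = 1), with all 3 Combination arrays below all 3 TMZ arrays. Nbn was the other member whose arrays lay apart in this way, by 6.51 against 6.52 at the closest, which gave 2 of 34 (5.88%, against 4.7% of all genes). Brca2 followed at -0.23 ± 0.12 (adjusted p = 1). Against Anti-PD-1 limma again called 0 members (beside 0% of all genes), and 2 had an unadjusted p under 0.05 (5.88%, against 4.91%): Bard1 at -0.40 ± 0.13 and Fancd2 at -0.26 ± 0.086 (adjusted p = 0.9996 for both). Fancd2 was the 1 member with all Combination arrays below all Anti-PD-1 arrays (2.94%, against 5.67% of all genes), and Chek2 the 1 with all above (2.94%, against 4.87%). Median member differences were -0.02 against TMZ and -0.0041 against Anti-PD-1.

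Between the single agents, TMZ minus Anti-PD-1, 0 members were called (beside 0% of all genes), and 0 had an unadjusted p under 0.05, against 4.51% of all genes. The smallest p values were those of Rad51ap1, at 0.25 ± 0.13, and Bard1, at -0.26 ± 0.13. The interaction asked whether adding the antibody to TMZ had the effect it had without the drug, and a positive value means a higher signal in Combination than the 2 single agents add up to. It called 0 members beside 0.00451% of all genes, and 2 members had an unadjusted p under 0.05 (5.88%, against 8.92%): Exo1 at 0.43 ± 0.18 (adjusted p = 0.504) and Rad52 at -0.21 ± 0.093 (adjusted p = 0.541). Without Control replicate 3 the interaction called Chek2, at 0.63 ± 0.12 (adjusted p = 0.0379). In a test over all 4 groups at once (limma's moderated F) 0 members passed, beside 0.00451% of all genes. In that test 5 of the 34 members had an unadjusted p under 0.05, against 2230 of 22180 genes (10.1%), with the smallest adjusted p, 0.242, in Fancd2.

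The wider pathway was read from lists of 71 further genes, of which 68 were measured. Of the 43 other recombination and Fanconi genes limma called 0 after any treatment, and 9, 4 and 6 lay below Control at an unadjusted p under 0.05 in Combination, TMZ and Anti-PD-1, with 1, 1 and 0 above. The shares below were 20.9%, 9.3% and 14.0%, against 6.18%, 5.78% and 6.79% of all genes. Their median differences were -0.06, -0.03 and -0.05. Parpbp, whose product restrains recombination, measured 4.52, 4.48 and 4.32 in Combination, 4.82, 4.54 and 4.28 in TMZ, 4.55, 4.51 and 4.31 in Anti-PD-1, and 5.24, 5.02 and 4.76 in Control. It was the furthest below Control of these genes in all 3 comparisons, at -0.57 ± 0.14, -0.46 ± 0.14 and -0.55 ± 0.14 (adjusted p = 0.193, 0.274 and 0.124), and 1 TMZ array reached into the Control range. Gen1, a nuclease that cuts joint molecules, measured 4.13, 3.98 and 4.12 in TMZ, below 4.66, 4.46 and 4.38 in Control (-0.42 ± 0.10, adjusted p = 0.158).

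Fignl1, a recombination factor, and Psmc3ip, a cofactor of strand invasion, were at -0.34 ± 0.088 and -0.36 ± 0.11 in Combination (adjusted p = 0.195 and 0.25), and Psmc3ip was at -0.28 in TMZ. Rfwd3, a ubiquitin ligase of the Fanconi pathway, was at -0.18 in Combination. In Anti-PD-1 Faap24, a partner of FANCM, was at -0.28, Usp1, which strips ubiquitin from FANCD2, at -0.23, and Mcm8, a helicase subunit, at -0.21. Fancf, of the core complex, was at 0.14 in TMZ. None of these passed the threshold.

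Of the 25 genes of damage signalling and end joining limma also called 0, and 3, 4 and 4 lay below Control at an unadjusted p under 0.05 in Combination, TMZ and Anti-PD-1, with 1, 2 and 1 above. The shares below were 12%, 16% and 16%, against 6.18%, 5.78% and 6.79% of all genes. H2ax, the histone variant phosphorylated around breaks, measured 8.45, 8.32 and 8.56 in Combination, 8.32, 8.10 and 8.30 in TMZ, 8.17, 8.44 and 8.32 in Anti-PD-1, and 8.90, 8.87 and 8.44 in Control. Its differences were -0.29 ± 0.12, -0.50 ± 0.12 and -0.43 ± 0.12 (adjusted p = 0.394, 0.176 and 0.16), and Control replicate 3 once more lay with the treated arrays. Tipin, of the fork protection complex, measured 5.80, 5.81 and 5.66 in Combination, 5.89, 5.68 and 5.86 in TMZ, 5.81, 5.89 and 6.04 in Anti-PD-1, and 6.08, 6.09 and 6.06 in Control, and here all treated arrays lay below all Control arrays. Its partner Timeless was at -0.28 ± 0.11, -0.30 ± 0.11 and -0.42 ± 0.11.

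Prkdc, the kinase of non-homologous end joining, was the 1 gene named from this list that lay above Control. It measured 6.84, 6.74 and 6.77 in Combination, 6.77, 6.78 and 6.82 in TMZ, 6.80, 6.84 and 6.91 in Anti-PD-1, and 6.71, 6.51 and 6.66 in Control. All 9 treated arrays lay above all 3 Control arrays, at differences of 0.16 ± 0.066 in Combination (adjusted p = 0.381) and 0.23 ± 0.066 in Anti-PD-1 (adjusted p = 0.161). Hus1, of the checkpoint clamp, was at -0.32 ± 0.094 in TMZ (adjusted p = 0.24), and Mdc1, which binds phosphorylated H2AX, at -0.29 ± 0.096 in Anti-PD-1 (adjusted p = 0.209).

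Groups without overlap were counted for each treatment. The 3 Combination arrays lay below the 3 Control arrays in 4 members (11.8%, against 7.82% of all genes), Bard1, Dna2, Fancd2 and Nbn, and above them in 1, Rad50 (2.94%, against 8.98%). In TMZ 4 members lay below Control (11.8%, against 6.81%), Bard1, Dna2, Exo1 and Fancd2, and 3 above (8.82%, against 8.19%), Fancc, Fance and Rad52. In Anti-PD-1 4 lay below (11.8%, against 8.33%), Dna2, Fancd2, Fancg and Rad51ap1, and 2 above (5.88%, against 10.3%), Helq and Rad52. Some margins were very small: Nbn reached 6.51 in Combination against 6.52 in Control, and Fancg read 5.88 in the closest arrays of both Anti-PD-1 and Control. The counts of members at an unadjusted p under 0.05 were highest without Control replicate 3, at 9 in Combination (26.5%, against 15% of all genes in the same fit), 6 in TMZ (17.6%, against 15.2%) and 7 in Anti-PD-1 (20.6%, against 17.5%). Without any other array the counts in Combination ran from 4 to 6 (11.8% to 17.6%, against 8.11% to 11.6% of all genes). Those in TMZ ran from 3 to 5 (8.82% to 14.7%, against 7.58% to 12.5%). Those in Anti-PD-1 ran from 3 to 6 (8.82% to 17.6%, against 9.22% to 13.7%).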

How the data were processed

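Each group had 3 of the 12 arrays, an Affymetrix whole-transcript design for mouse, which read total RNA from GL261 tumours. Whether each array stands for a separate tumour is not stated in the labels. Per the submitters' processing notes, the authors ran RMA in Expression Console (Affymetrix) to make the deposited log2 values; the version is not given in the sources used here. The table held 41345 probe sets, of which 23521 carried 1 gene symbol, 1814 several and 16010 none. No filter on brightness was applied.

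From these values a mean per group was fitted to each of the 22180 genes with limma 3.58.1 in R 4.3.3 (eBayes with default settings, 8 residual degrees of freedom), tested first on simulated data. Two-sided p values were adjusted by Benjamini-Hochberg across the whole table in each contrast, and 0.05 was the threshold. Errors beside differences are SE, those beside means SD. The members and gene lists were chosen with earlier results of these data known. Values in every array are given for members past the threshold, for the 6 members with the smallest p against Control, the 2 in each other contrast and 10 fixed genes; from each wider list the 4 with the smallest p against Control were named. Alternatives were a variance trend, only the groups compared, dim genes left out, all probe sets, averaged probe sets, median centring, array weights, a neuron marker covariate, a replicate block and each array left out.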

Additional observations from a re-analysis of the deposited data

How the results depend on the processing

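The count of members called stayed at 0 under all 9 alternatives that kept every array of the groups compared. Leaving out 1 array gave 0 to 2 in TMZ, 0 to 2 in Anti-PD-1, 0 to 1 in Combination, the interaction and the test over 4 groups, with every count above 0 coming without Control replicate 3. Those calls were Exo1 in all 3 treatments, Chek2 in TMZ, Anti-PD-1 and the interaction, and Exo1 in the test over 4 groups; the cause was not tested. The median member difference from Control stayed below 0 throughout, at -0.0906 to -0.0347 in TMZ over the fits without 1 array, and was -0.00214 in TMZ once dim genes were left out, which also drops 5 members. It was -0.0412 in Combination against Anti-PD-1 with the neuron covariate, and 0.0101 to 0.064 in the interaction without 1 array.

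The counts over all genes moved far more. Genes called in TMZ (22) were 113 with a variance trend, 0 with only the groups compared, 1 over all probe sets, 38 with array weights, 3 with the neuron covariate and 0 to 363 without 1 array. In Anti-PD-1 (65) they were 381, 0, 2, 260 and 0 under those settings, 145 without dim genes, and 1 to 686 without 1 array. In Combination (0) they were 42 with the trend, 2 without dim genes, 17 with weights and 0 to 282 without 1 array. The interaction (1) gave 12 with the trend, 0 without dim genes, over all probe sets and with the neuron covariate, and 0 to 198 without 1 array. The test over 4 groups (1) gave 90 with the trend, 3 without dim genes, 0 over all probe sets, 4 with averaged probe sets, 4 with median centring, 9 with weights, 0 with the neuron covariate and 0 to 245 without 1 array. The highest count of each came without Control replicate 3.

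With replicate number as a block in the fit, genes called were 4 in TMZ, 20 in Anti-PD-1 and 5 over the 4 groups, and no member was called. The numbers do not pair the arrays: 1 of 18 same-numbered pairs correlated above 0.1 (range -0.162 to 0.156), and 4 of 12 arrays correlated best with their own number.

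Of 939 recomputed differences of the 15 members named by rule, 913 kept their direction and did not pass the threshold, 3 passed it (Exo1) and 23 changed sign. The recomputed values that changed sign ran from -0.149 to 0.129, and none of them passed the threshold. Atr was at -0.0349 in TMZ and -0.00133 in Combination with averaged probe sets, and at -0.118, -0.149 and -0.0227 in TMZ, Anti-PD-1 and Combination with the neuron covariate. Under that covariate Chek1 was at 0.0276 in TMZ and 0.0652 in Anti-PD-1, and Fanci at 0.129 in Anti-PD-1. Median centring put Bard1 at 0.000187 in Anti-PD-1. Without 1 array, Atr ran from -0.0707 to 0.0641 in TMZ and -0.0400 to 0.0887 in Combination, Chek1 from -0.106 to 0.0466, -0.105 to 0.0673 and -0.169 to 0.0307 in TMZ, Anti-PD-1 and Combination, Bard1 from -0.143 to 0.113 in Anti-PD-1, Brca2 from -0.0226 to 0.162 in Anti-PD-1 and -0.162 to 0.0359 in Combination, and Rad52 from -0.0424 to 0.056 in Combination.

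Only 3 arrays a group, no detection calls and an unknown share of brain tissue limit these values.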
